A study of Drosophila melanogaster with 12 samples.

Results

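Transcripts that were enriched in enteroblasts (EBs) and gained in whole guts after RNAi against Hey in enterocytes (ECs) were collected from 12 arrays of adult Drosophila melanogaster females. A transcript was a member when its log2 intensity was at least 1 unit higher in Hey RNAi guts than in control guts (the gut change), at least 1 unit higher in control EBs than in control guts (the tissue difference), and changed by less than 0.8 units in either direction in EBs after Hey RNAi (the EB change). In addition, all 3 Hey RNAi guts had to lie above all 3 control guts. Of the 15473 transcripts on the array, 104 (0.672%) met these limits. The members were thus chosen by their measured gut change, tissue difference and EB change, so the gut change, the tissue difference and the EB change of the members are given below as a description.

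The 4 groups held 3 arrays each, and by the study's methods the RNA of each came from a separate cross. Hey RNAi guts (EC-dHey RNAi) were whole guts in which MyoIA-Gal4 drove the RNAi in ECs. Hey RNAi EBs (EB-dHey RNAi) were cells purified by a CD8-GFP surface tag from guts in which hey-Gal4 drove the RNAi. Control EBs (EB-GFP) came from the same purification with UAS-GFP in place of the RNAi, and control guts (EC-GFP) carried UAS-GFP under the EC driver. Flies were raised at 18 °C and moved to 29 °C for 2 days at 2 to 4 days of age. For the EC driver, the study describes a temperature-sensitive repressor of Gal4, so that this move switched the transgenes on. The hey-Gal4 line is listed without that repressor, so when the RNAi began in EBs is not known here. By the study's methods the flies for EB purification were also kept longer at 18 °C, so age, driver and purification differed together with the cell type. The methods describe hey-Gal4 as an EB driver with minimal activity in stem cells, and the share of tagged cells differed between preparations.

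In the fly midgut, intestinal stem cells divide to renew themselves and give rise to EBs, which receive a Notch signal and mature into ECs, the large polyploid cells that secrete digestive enzymes and take up nutrients. Hey is a basic helix-loop-helix factor related to the HES repressors, a group best known as targets of Notch. The study proposes that in ECs Hey both represses and activates genes. A whole gut holds mainly ECs by mass, with fewer progenitors and hormone-secreting enteroendocrine cells, and is wrapped in visceral muscle and trachea. In such a bulk sample, fewer cells of a type and less RNA per cell cannot be told apart, nor can a gain through more progenitors be told apart from a gain within other cells.

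Each array carried 4 probes of 60 nucleotides per transcript. Medians of the deposited intensities ran from 490.5 to 877.6 units over the arrays, and precision was limited by having 3 arrays in each group. The files name transcripts by FlyBase transcript identifiers only, and 9 of the 15473 identifiers (0.0582%) matched a gene symbol. A single member, sle, was among these 9. Hey itself and the defining markers of EBs, ECs, enteroendocrine cells, muscle and trachea were not paired, so neither the knockdown nor the cell types named in the labels were checked here. Of the 505 symbols in the lists used here (markers of gut and other cell types, and genes of signalling, chromatin, the nuclear lamina, the basement membrane, ribosome biogenesis, cell cycle, replication and DNA repair), 3 were measured under a symbol, of which sle was the one member.

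In Hey RNAi guts most of the gained transcripts reached a level below that of EBs and, by the rule, above that of control guts. The gut change ran from 1.00 to 2.42 log2 units with a median of 1.29, a 2.45-fold gain, and reached 2 units in 5 members. The tissue difference was larger, from 1.00 to 4.73 units with a median of 2.18, and reached 2 units in 58 members and 3 in 10. Over all transcripts the median gut change was 0.02 and the median tissue difference 0.21 units. Over the 104 members the gut change and the tissue difference had r = 0.06 and rho = 0.08. Both were limited at 1 unit by the rule and share their control guts, so these values describe the members only.

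**Figure D1:**
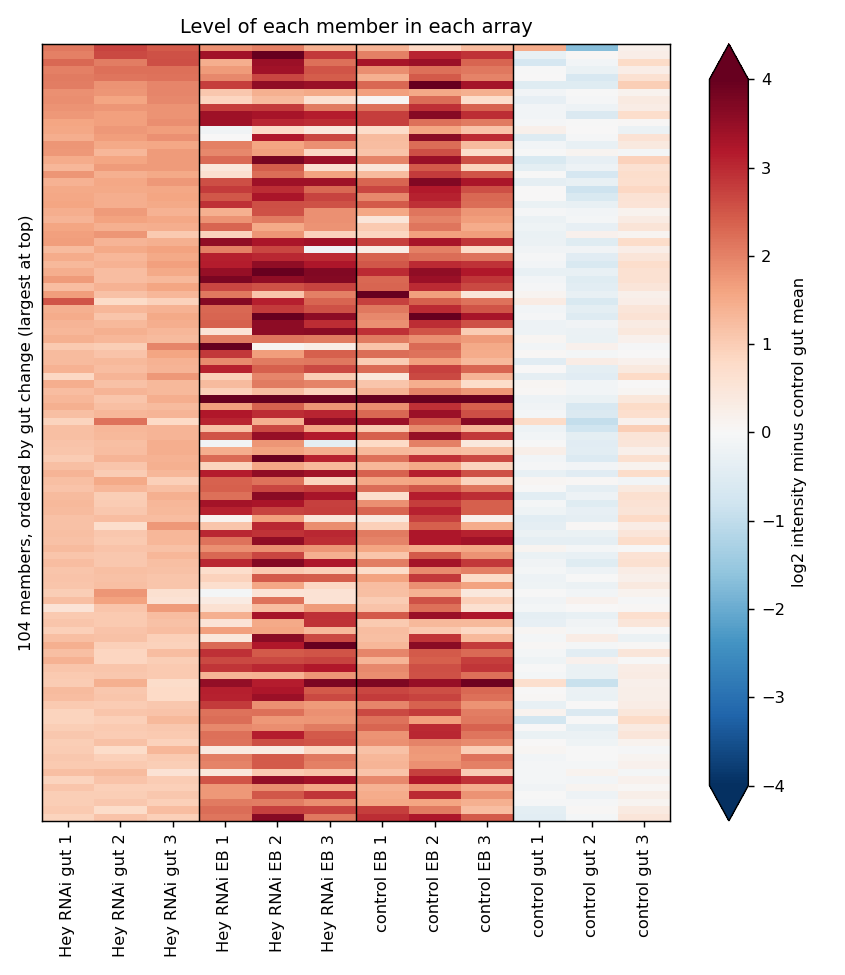
Level of the 104 members (rows, ordered by gut change) in the 12 arrays (columns), as log2 intensity minus the mean of the 3 control guts, with colours saturating beyond 4 units. The Hey RNAi guts at the left are an even, pale red, the 6 EB arrays are darker and more uneven, and the control guts at the right lie near 0.

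When the linear model in limma was fitted over all 12 arrays, 49 of the 104 members passed as higher in Hey RNAi guts than in control guts (adjusted p under 0.05 and at least 2-fold), and 1.67% of all transcripts did. The rule had used this contrast, so the count describes the strength of the single calls and nothing more. None passed as lower, against 1.43% of all transcripts, as the rule demands. With the 6 gut arrays fitted alone, 95 members passed against 3.54% of all transcripts, and 47 of the 49 were among them, while none passed as lower, against 3.52%. The number that passed changed with most gut arrays, and the calls over all transcripts in both directions, 480 in the fit of 12 arrays, fell alongside. Without control gut 1 or 2, 20 or 17 members passed, of 261 or 229 transcripts called. Without Hey RNAi gut 1, 2 or 3, 21, 21 or 23 members passed, of 259, 244 or 284. On the deposited values without added normalization 8 members passed, of 158, and when arrays were merely centred on their medians 23 passed, of 277. For the tissue difference, also used by the rule, 94 members passed as higher in control EBs, as did 15.7% of all transcripts, and none as lower, where 13.7% of all did. All 3 control EBs lay above all 3 control guts in 98 members, against 35% of all transcripts.

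sle encodes a nucleolar protein. Its transcript, FBtr0082231, had log2 intensities of 11.75, 11.62 and 11.71 in Hey RNAi guts, against 10.57, 10.65 and 10.79 in control guts. It stood at 12.73, 13.13 and 12.77 in Hey RNAi EBs, against 12.00, 12.36 and 12.84 in control EBs. The guts of both genotypes thus formed separate, narrow groups, and all 6 EB arrays lay above all 6 guts, while both EB groups overlapped. All EB arrays lay above all guts in 54 members, against 15.1% of all transcripts. The limits on the tissue difference and the EB change favour this separation. It was also seen in 1004 of the 1419 other transcripts that met these 2 limits. The gut change of sle was 1.03 ± 0.22 log2 units (SE; limma adjusted p = 0.0252), a 2.04-fold gain that lay just inside the limit of the rule. Because the gut change chose the members, a p-value of it shows only on which side of the threshold a single call fell. Its tissue difference was 1.73 ± 0.22 (SE) and its EB change 0.48 ± 0.22 (SE; limma adjusted p = 0.127). These SEs are equal because all 4 groups shared 1 estimate of the spread. The SD of sle was 0.06 in Hey RNAi guts and 0.11 in control guts, against 0.22 in Hey RNAi EBs and 0.42 in control EBs. In guts sle stayed past the threshold in 12 alternative runs and missed it in 9. It passed with the 6 gut arrays alone (limma adjusted p = 0.00261) and with array weights (limma adjusted p = 0.00026). With any single gut array left out it missed the threshold (limma adjusted p = 0.0544 to 0.108). It also missed without added normalization (limma adjusted p = 0.254) and with each array centred on its median (limma adjusted p = 0.0797).

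FBtr0081040, whose gene is not paired in the files, had the largest gut change. It stood at 12.63, 13.24 and 12.98 log2 units in Hey RNAi guts, against 12.02, 8.84 and 10.73 in control guts. The Hey RNAi guts were close together, whereas the control guts spread over more than 3 units, and the nearest control gut was less than 1 unit below the lowest Hey RNAi gut. The size of its gut change, 2.42 ± 0.61 (SE), depended on which control guts were used, and it missed the threshold (limma adjusted p = 0.0534). Without control gut 2 the change was 1.57 and without control gut 1 it was 3.17. FBtr0081040 also stood at 12.36, 12.53 and 11.94 in Hey RNAi EBs, against 11.88, 11.37 and 11.79 in control EBs, so its Hey RNAi guts lay above every EB array. Its tissue difference was 1.15 ± 0.61 (SE), which met the limit of the rule but missed the threshold in limma (limma adjusted p = 0.155). Control gut 1 lay above all 3 control EBs, so its enrichment in EBs was not clear.

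FBtr0073806 had the largest tissue difference, 4.73 ± 0.35 log2 units (SE). It reached 12.14, 11.16 and 10.68 in control EBs, against 6.39, 6.34 and 7.06 in control guts, which placed it at the 24.998 percentile of all transcripts in control guts. In Hey RNAi guts it stood at 7.92, 7.72 and 8.04, above every control gut and far below every EB array. Its gut change was 1.30 ± 0.35 (SE), which was past 2-fold but not past the adjusted p (limma adjusted p = 0.0713), and covered 27.4% of the tissue difference, the smallest share among the members. Hey RNAi EBs, at 12.15, 11.63 and 11.45, overlapped control EBs.

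**Figure D2:**
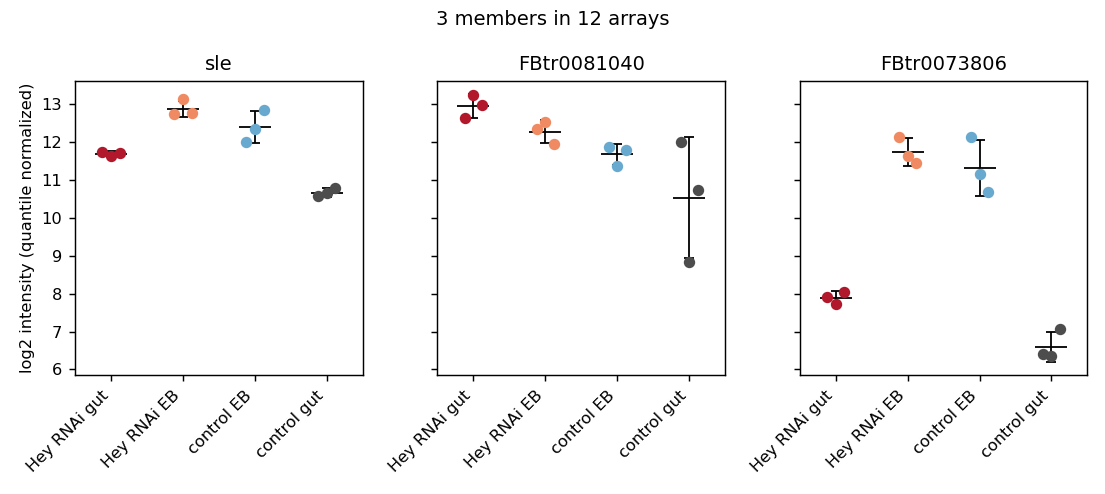
Log2 intensity (quantile normalized) of sle, FBtr0081040 and FBtr0073806 in the 4 groups, with a point per array and the mean and SD of 3 arrays in black. The Hey RNAi guts of sle and FBtr0073806 lie below the EBs and above the control guts, and those of FBtr0081040 lie above all EB arrays.

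How far the members had moved toward the EB level was asked next. The gut change was divided by the tissue difference, so that 0% stands for the control gut and 100% for the control EB level. The median share was 60.7%, with the middle members between 49.1% and 85.7%, and with single Hey RNAi guts it was 62.5%, 59.1% and 60.6%. In 75 members the gain covered at least 50% of the distance, and in 20 the Hey RNAi guts matched or exceeded the mean of control EBs. Because a member needed a gut change of 1 unit, a small share was possible only where the tissue difference was large. With each array centred on its median, the median share was 49.97%.

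The direct contrast of Hey RNAi guts with control EBs equals the gut change minus the tissue difference. Both had chosen the members, so the values and calls in this contrast are a description with no support to be drawn from them. The Hey RNAi guts were on average 0.83 log2 units below control EBs in the median member, from -3.43 to 1.27, against a median of -0.19 over all transcripts. Of the 104 members, 41 passed as lower in Hey RNAi guts than in control EBs in limma, where 13.6% of all transcripts did, and none passed as higher, where 13% of all transcripts did. With the 6 arrays of this contrast alone, 39 passed as lower, against 14.3% of all transcripts, and 1, FBtr0081040, as higher, against 12.9%, and 38 of the 41 were shared. By the arrays, all 3 control EBs lay above all 3 Hey RNAi guts in 58 members, against 35.3% of all transcripts. All 3 Hey RNAi EBs lay above all 3 Hey RNAi guts in 63 members, against 32.1% of all transcripts, again from groups that the rule had used. Hey RNAi guts and control EBs overlapped in 44 members, and in 2 all Hey RNAi guts lay above all control EBs, against 22.1% of all transcripts. For sle the difference was -0.71 ± 0.22 log2 units (SE). For FBtr0073806, named for its large tissue difference, it was -3.43 ± 0.35 (SE), and for FBtr0081040, named for its large gut change, it was 1.27 ± 0.61 (SE).

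**Figure D3:**
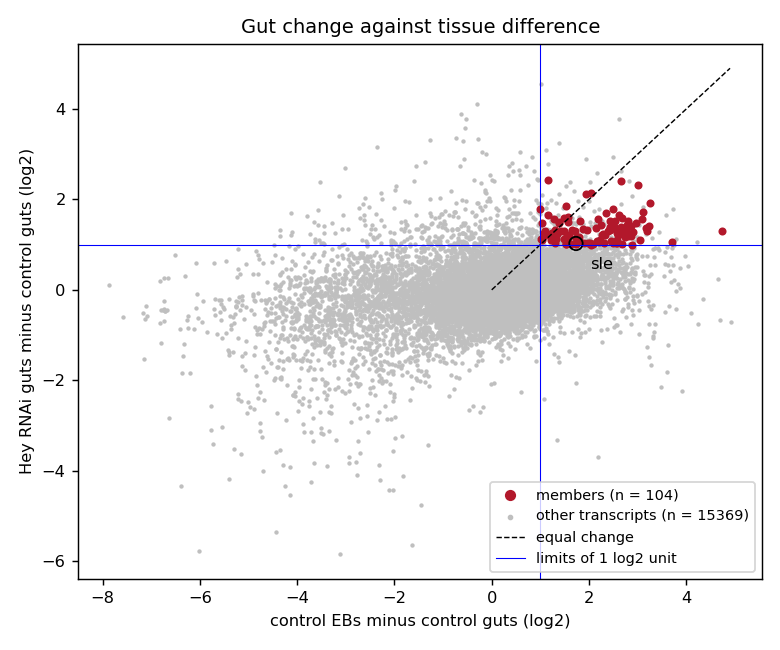
Gut change (vertical, Hey RNAi guts minus control guts) against tissue difference (horizontal, control EBs minus control guts), both in log2 units and both relative to the same control guts, for the 104 members in red and all other transcripts in grey. The blue lines mark the limits of 1 unit, and most members lie below the dashed line of equal change, where the gain in guts is smaller than the distance to EBs.

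In EBs the members changed little after Hey RNAi, as the limit of 0.8 units demanded. Within that limit, 71 members were measured higher and 33 lower in Hey RNAi EBs than in control EBs, with a median of 0.26 log2 units, against 0.04 over all transcripts. For 69 members the change was under 0.5 units. None could pass the threshold in limma, since a 2-fold change lies outside the limit of the rule. Of all transcripts, 7.5% passed as higher and 9.46% as lower. An unadjusted p under 0.05 was seen in 16 members (15.4%), against 39.4% of all transcripts, a gap in the direction that the limit sets. With the 6 EB arrays alone none passed either, against 3.75% of all transcripts as higher and 4.75% as lower. All 3 Hey RNAi EBs lay above all 3 control EBs in 13 members, against 17.4% of all transcripts, and below them in 4, against 17.3%. The limit on the EB change removed many transcripts with the same gut pattern. Among the 222 that met the other limits, 87 were at least 0.8 units higher in Hey RNAi EBs than in control EBs and 31 were lower by at least that much. The difference of both effects, the EB change minus the gut change, had an adjusted p under 0.05 in limma with a lower value in EBs for 27 members, against 7.63% of all transcripts. No member had a higher value in EBs by this test, against 5.14% of all transcripts. The rule forces this direction. None of the 3 transcripts described above passed this test (limma adjusted p = 0.26 for sle, 0.187 for FBtr0081040 and 0.271 for FBtr0073806).

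The members also varied together among replicates of a single genotype. The rule set no order among replicates, but it used the means and the separation of these same arrays. It favours transcripts with low control guts or high control EBs, so the spread and the order of arrays given here are a description. In the median member, the SD was 0.14 log2 units in Hey RNAi guts and 0.38 in control guts. Among the 1419 other transcripts that were EB-enriched and stable in EBs by the same limits, the median SD was 0.14 in Hey RNAi guts and 0.19 in control guts. Nearly all of these missed the limit on the gut change, so they were not chosen in the same way as the members. Most of the spread among control guts lay in 1 direction. Control gut 3 was the highest of the 3 control guts in 82 of 104 members (78.8%), against 37.1% of the other EB-enriched transcripts, 41.7% of 139 transcripts that were gained in guts but not EB-enriched, and 32.9% of all transcripts. It lay 0.53 log2 units above the mean of control guts 1 and 2 in the median member, and at least 0.5 units above it in 54 members. The same difference was -0.03 units in the median of all transcripts. Control gut 3 was thus closer to the Hey RNAi guts and to the EBs at most members. Quantile normalization gave all arrays a common distribution, so a shift of the array as a whole could not have been seen.

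A like pattern was seen in EBs. Control EB 2 was the highest control EB in 78 members (75%), against 44.4% of the other EB-enriched transcripts, 56.1% of those gained but not EB-enriched and 40.3% of all transcripts. It exceeded the mean of control EBs 1 and 3 by 0.59 log2 units in the median member, against 0.07 over all transcripts. Hey RNAi EB 2 was the highest Hey RNAi EB in 60 members (57.7%), against 32.2%, 37.4% and 32.6% of these sets in the same order. In 66 members (63.5%) control gut 3 and control EB 2 were both the highest of their group, a combination that held for 21.4% of the other EB-enriched transcripts, 28.1% of those gained but not EB-enriched and 16.8% of all transcripts. Hey RNAi gut 3 was the highest Hey RNAi gut in 52 members (50%), against 29.4% of the other EB-enriched transcripts and 34.5% of all transcripts, by a small margin. It lay 0.06 units above the mean of Hey RNAi guts 1 and 2 in the median member. These patterns were noticed after the values were seen and were not tested. Markers of other cell types were not paired with the identifiers, so their part in the spread was not tested. The share of tagged cells, which differed between preparations, was not matched to the EB arrays, and its part was not tested either.

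**Figure D4:**
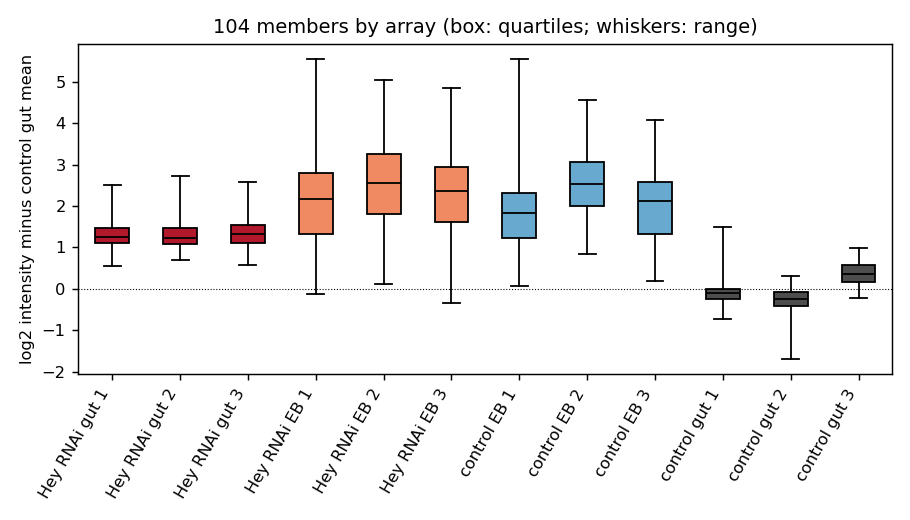
Log2 intensity of the 104 members in each of the 12 arrays, relative to the mean of the 3 control guts, with boxes at the quartiles, a line at the median and whiskers over the whole range. Hey RNAi guts have medians between 1.22 and 1.33, control EBs between 1.84 and 2.54, and control gut 3 lies at 0.36, above control guts 1 and 2 at -0.10 and -0.25.

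The gut change was smallest in the pair with control gut 3. By mean deposited intensity the arrays fell into 5 sets of like level, and 3 of these held a Hey RNAi gut together with the control gut of the same number. Within these sets the deposited values were compared without any further normalization, an alternative chosen after seeing the data. All 104 members were higher in the Hey RNAi gut in each of the 3 sets with guts, which the separation of the arrays by the rule largely fixes. The median gain was 1.36 log2 units in the set with guts 1 and 1.62 in that with guts 2, but 0.92 in that with guts 3. A gain of at least 1 unit was seen in 89, 95 and 42 members, against 4.56%, 7.03% and 3.78% of all transcripts. sle gained 1.23, 1.05 and 0.92 units in these sets, FBtr0073806 gained 1.45, 1.49 and 1.15, and FBtr0081040 gained 0.64, 4.55 and 2.22. Without control gut 3, the limits were met by 163 transcripts, 102 of the 104 members among them.

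Most members were of low or middle level in control guts. The median percentile of their mean level among all transcripts was 49.1 in Hey RNAi guts, 58.4 in Hey RNAi EBs, 57.9 in control EBs and 39.0 in control guts, where single members ran from 2.75 to 82.9. When all transcripts were divided into 3 equal classes by level, 17 members were in the dimmest and 36 in the brightest class in control EBs, against 41 in the dimmest and 9 in the brightest in control guts. The rule placed control guts at least 1 log2 unit below control EBs and Hey RNAi guts, so it largely sets this order. No measure of background or detection was used here, so a gain of the dimmest members is a difference of intensities without a check that both lay above background.

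Several identifiers can belong to the same gene, and their levels are then not independent. Among the members, 6 pairs had identifier numbers no more than 2 apart, 12 members in all, which left 98 separate entries. The levels of these pairs correlated at r = 0.84 to 1.00 over the 12 arrays with a median of 0.98, against a median of 0.81 over all 5356 pairs of members, which share the pattern of the rule. Over all 14226 pairs of transcripts equally close in number the median was 0.18, so a close number alone does not show a shared gene. The nearest member to sle by number differed from it by at most 0.16 log2 units on any array and had a gut change of 1.02 and a tissue difference of 1.74. The identifier 1 below that of sle was no member. It differed from sle by up to 2.39 units on an array (r = 0.82) and had a gut change of 0.66, a tissue difference of 0.71 and an EB change of 1.34 units. Whether the identifiers in any of these pairs belong to the same gene was not tested.

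The members were a small share of the EB-enriched transcripts. Of 1523 transcripts at least 2-fold higher in control EBs than in control guts and stable in EBs by the limit of 0.8 units, 107 (7.03%) had a gut change of at least 1 unit and 5 (0.328%) of at most -1 unit. Among all transcripts these shares were 4.05% and 4%. A positive gut change was measured in 76.1% of the EB-enriched transcripts and in 52.2% of all transcripts. Both differences are taken from the same control guts, so low control guts raise both, and these shares are a description. Of the 107, 3 missed the separation of the arrays. The other 1419 had a median gut change of 0.23 units and a smaller tissue difference, with a median of 1.34 units against 2.18 in the members.

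The limits lay within a continuous range of values. The smallest gut changes inside the limit were 1.002, 1.003 and 1.005 log2 units, and the largest outside it, among transcripts that met all other limits, were 0.9993, 0.997 and 0.994. The smallest tissue differences inside were 1.00, 1.01 and 1.03 and the largest outside 0.98, 0.96 and 0.95. The largest absolute EB changes inside were 0.791, 0.789 and 0.788 and the smallest outside 0.81, 0.83 and 0.83. Of the other transcripts with a symbol, Uba1, the ubiquitin-activating enzyme, came nearest to the limits. Its gut change was 0.84, its tissue difference 0.78 and its EB change -0.68 log2 units, with all Hey RNAi guts above all control guts. LanA, which encodes a laminin alpha chain, was EB-enriched by 2.80 units but had a gut change of -0.32 and an EB change of -1.31.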

How the data were processed

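RNA of the 12 samples was amplified, copied into cDNA, labelled in 1 colour and hybridised to NimbleGen arrays, 1 array for each sample. The authors scanned them, extracted the data in NimbleScan and normalized them in ArrayStar, and the submitters' processing notes list RMA. The deposited intensity of a transcript on an array is a single linear value. Beyond these names, no setting of the normalization is given in the sources used here, nor is the genome build. Further deposited workbooks hold the authors' own comparisons (folds, p-values, t scores and, for guts, group means) and were not used.

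Intensities were taken as log2 and quantile normalized over 12 arrays, since array means fell into 5 sets that differed by at least 1.95% between sets and by at most 0.43% inside one. This step gives all arrays a common distribution and can hide a change shared by most transcripts. Models were fitted in limma 3.58.1 (R 4.3.3) with a mean per group over all 12 arrays (8 residual and 2.6 prior degrees of freedom) and Benjamini-Hochberg adjustment over 15473 transcripts. Guts and EBs thus shared 1 estimate of the spread for each transcript. The median SD over all transcripts was 0.16 in Hey RNAi guts and 0.19 in control guts, against 0.41 in Hey RNAi EBs and 0.35 in control EBs. For many transcripts the shared SE can therefore be too wide for guts and too narrow for EBs. In the median member the SD was 0.14 in Hey RNAi guts and 0.38 in control guts, against 0.39 in Hey RNAi EBs and 0.47 in control EBs. For FBtr0081040 the SD was 0.31 in Hey RNAi guts and 1.60 in control guts, against 0.30 and 0.27 in these EB groups. Its shared SE can thus be too narrow for guts. A transcript passed when its adjusted p was under 0.05 and it changed 2-fold or more. The difference of effects had no fold limit. All transcripts were kept. The scripts were tested on simulated data.

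The members, lists and tests were chosen with earlier results of these data known. Named were sle, the member with a symbol, and the identifiers with the largest gut change and the largest tissue difference. Symbols came from the RefSeq gene table of release 6. Same-numbered arrays deviated together from their group means by r = 0.183, 0.321 and 0.127 in EBs. In guts the values were 0.168, 0.005 and 0.256, so this pattern did not set EBs apart from guts. The main fit paired no arrays, and the replicate block paired guts and EBs alike. Alternatives covered the normalization, the arrays fitted, a filter on dim transcripts, the prior, array weights, the block, the limits of the rule and each array left out. The comparison within sets of like intensity, and the count of members that remained with each array left out, were added after seeing the data.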

Additional observations from a re-analysis of the deposited data

How the results depend on the processing

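The number of members depended on the limits. With 0.8 in place of 1 on the gut change and the tissue difference it was 219, with 1.2 it was 58, and with a limit of 0.5 on the EB change it was 69. It was 111 without added normalization (79 of the 104 among them), 134 with arrays centred on the median (81), 137 with guts and EBs normalized apart (97), and 84 to 163 with 1 array left out. Whichever of the 12 arrays was left out, 32 members remained, and 58 remained whichever of the 6 gut arrays was. The count of members higher in Hey RNAi guts, 49 of 480 transcripts called in either direction, was 8 of 158 without added normalization, 23 of 277 with median centring, 95 of 1091 with the gut arrays alone and 101 of 1117 with array weights. It was 17 to 61 with 1 array left out, where 229 to 638 transcripts were called. The count of members that passed in EBs, 0 of 2625, was 3 of 2598 with median centring and 3 of 3013 with array weights, and 0 to 2 with 1 array left out, where 2290 to 2942 were called. Counts for control EBs against control guts (82 to 97 with 1 array left out, of 4128 to 4780) and for Hey RNAi guts against control EBs (28 to 44, of 3461 to 4451) stayed within 1.5 times the value given in every alternative. The median share of the distance to EBs was 49.97% with median centring and 56.3% to 68.2% with 1 array left out. Array weights, the intensity sets as a block, the gut arrays alone and leaving out control EB 1 brought FBtr0073806 past the threshold in guts, and 4 settings (dim transcripts left out, a robust prior with trend, array weights, and control gut 1 left out) did so for FBtr0081040. With the replicate number as a block, 62 members passed in guts (of 530 transcripts), 0 in EBs (of 2874) and 45 against control EBs (of 4333). On deposited values these were 43 of 429, 0 of 2673 and 40 of 5157. In guts the block also brought FBtr0073806 past the threshold (limma adjusted p = 0.0244), on deposited values too (limma adjusted p = 0.0202). It kept sle past the threshold (limma adjusted p = 0.0462), but on deposited values sle missed it (limma adjusted p = 0.112). No direction of the 3 named transcripts in guts or against control EBs was reversed in any alternative run. In guts the separation of the arrays by the rule largely fixes this. FBtr0081040 and FBtr0073806 were also named for their extreme values, so no support is drawn from it. The cause of these changes was not tested.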
